A study of Mus musculus with 98 samples.

Results

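Neural crest–derived cells of the mouse thymus (NC cells) were taken as the cells that carry the authors' NC label in the single-cell data over development. They numbered 650 of 36208 labelled cells. The authors drew the label from 1 of the clusters of nonepithelial thymic stroma (NETS), so genes that set NC cells apart from other labels are described here without a test. All 8 libraries came from wild-type (WT) C57BL/6 mice and held live cells sorted as Ter119-CD45-EpCAM-, which leaves out red cells, leukocytes and epithelium. The embryonic ages E12.5 and E13.5 gave 1 library each, from thymi pooled over embryos and litters, and E16.5, the day of birth (P0) and 4 weeks of age (W4) gave 2 each. Cells were released with Liberase and DNase I, and adult digests could be depleted of CD45+ cells with beads. In a second data set, Ter119-CD45- cells of newborn WT (3 libraries) and Tbx1+/-Crkl+/- mice (3 libraries), fixed in RNAprotect after the sort, held 6 to 20 NC cells each. Tbx1+/-Crkl+/- mice carry a lacZ allele of Tbx1 and a null allele of Crkl and both genes lie in the region deleted in DiGeorge syndrome. Another data set held bulk RNA of populations sorted from WT thymus, 6 libraries for each population at both P0 and 4 weeks. The bulk library titles start with 1 of 2 codes, DFCK and TXCK, whose meaning they do not give, with 3 libraries of each in every group. Nothing in the labels ties replicate numbers to separate animals or cultures, so that p-values measure the spread between libraries of the same group.

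The neural crest is a migratory population that leaves the dorsal neural tube and gives rise to glia, neurons, melanocytes and, in the head and pharyngeal arches, mesenchyme. Schwann cell precursors are crest cells that travel along nerves. They keep Sox10 and Foxd3, respond to neuregulin through the receptor ERBB3, and become myelinating or nonmyelinating Schwann cells. In the thymus, nerves enter along vessels, and crest also contributes mural cells and capsule mesenchyme that no longer carry these transcription factors.

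Expression is given as UMIs (unique molecular identifiers, 1 for each captured transcript) summed over the NC cells of a library and scaled to a total of 1000000 (CPM). The number of NC cells set the precision. From E12.5 to W4, with replicate 1 before replicate 2, the 8 libraries held 259, 293, 10, 10, 39, 25, 7 and 7 NC cells with 3100758, 2427458, 146336, 104386, 427080, 198598, 46508 and 24222 UMIs. A count of 3 UMIs, the number below which a gene was treated as not detectable, thus equaled 0.968 CPM at E12.5 but 64.5 and 123.9 CPM in the W4 libraries. Both W4 libraries together held 70730 UMIs, and 3 of these correspond to 42.4 CPM. Median depth per NC cell was 11249 UMIs at E12.5 and 3333 UMIs in replicate 2 of W4. Of all labelled cells, 310 shared a barcode with a cell of another library, among them 2 NC cells.

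Sox10 and Foxd3, by which the study named the label, describe it here and are no test of it, and Nkain4 and Ngfr are genes that it names for early and postnatal NC cells. Sox10, the transcription factor that specifies crest glia, was found in 82.8% of NC cells (95% exact binomial confidence interval, 79.6 to 85.6%) but in 1 of 4121 pericytes (Pc label), a share of 0.0243%, at median depths of 9414 and 8445 UMIs. Foxd3, a crest specifier, was found in 93.4% of NC cells and 0.0971% of Pc. Nkain4, a protein that interacts with a sodium pump subunit, was less restricted, with 88.0% of NC cells and 18.6% of Pc, and its mean level was higher in mesothelium (817 CPM) than in NC cells. Ngfr, the low-affinity neurotrophin receptor, was found in 26.3% of NC cells and 8.59% of Pc. After every cell was thinned to 2000 UMIs, these shares in NC cells were 38.2% for Sox10, 67.7% for Foxd3, 44.6% for Nkain4 and 9.23% for Ngfr. Intervals cover counting error only.

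Short promoter windows are shown for genes with a high ratio of NC cells to other labels, because these genes were high in the same cells. Of the 15 genes with the largest ratio to the next label (below), 10 had promoters in the RefSeq table of GRCm38.p6, which spans 250 bases before to 50 bases after each gene start. These promoters were searched on both strands for the SOX-type letters ACAAAG and ACAATG. Chl1 (a cell adhesion molecule), Gal3st1 (a sulfatide-making sulfotransferase of myelin), Mag (myelin-associated glycoprotein) and Plekhb1 (a membrane-bound pleckstrin homology protein) held a match, given here 5′ to 3′ on the strand of the gene with the match in capitals.
Chl1, plus strand, chr6:103510719-103510748: gcaaagttttctCTTTGTccctcgcttttc
Gal3st1, plus strand, chr11:3983440-3983469: gctggcagtaggACAATGgaccccttggcc
Mag, minus strand, chr7:30914972-30915001: tgacaagggcccCTTTGTgcccccctcccc
Plekhb1, minus strand, chr7:100657178-100657207: ctctgactgacaCTTTGTactgttcccatt
In Chl1, Mag and Plekhb1 the letters CTTTGT are the reverse complement of ACAAAG. A match was present in 6 of the 16 promoters of these genes (37.5%), beside 28.6% of all 32851 promoters in the table, and in 4 of 10 genes (40%), beside 31.7% of all genes. These shares rest on few promoters and were not tested.

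Compared with the other labels, NC cells had the highest mean CPM for 865 of the 3500 genes with a mean of at least 50 CPM in NC cells, and for 60 of these they exceeded the next label at least 10-fold. Gap junction protein Gjc3 had a mean of 169 ± 142 CPM (SD over 8 libraries) and was 691-fold above the next label. It was followed by Gpr37l1, a receptor of glia (422-fold), the axonal-type potassium channel Kcna1 (287-fold), the GDNF family coreceptor Gfra3 (165.02-fold), Gal3st1 (161.03-fold), the adhesion molecules L1cam (113.02-fold) and Cdh19 (100.3-fold), the BMP and Wnt antagonist Sostdc1 (81.5-fold), Mag (80.3-fold), the myelin and lymphocyte protein Mal (65.8-fold), Gm2115 (64.2-fold), Plekhb1 (63.1-fold), Kcna2 (54.4-fold), Gm12688 (46.2-fold) and Chl1 (42.9-fold). Levels averaged over ages were uneven, and without the library in which a gene was highest the NC mean was lower by over 1.5 times for 7 of the 15 genes. Kcna1, for example, went from 999 ± 1632 to 510.2 CPM and Kcna2 from 344 ± 554 to 163.1 CPM without replicate 2 of W4. Mag went from 74.1 ± 115.2 to 35.6 CPM without replicate 1 of W4, which is under the minimum of 50 CPM for this ranking. The next label was MedFb2a, which also held cells with glial markers (below), for Gpr37l1, L1cam, Cdh19 and Gm12688. Its level was near 0 for the largest ratios, with 0.577 ± 1.63 CPM for Gpr37l1, and CapFb1b had 0.245 CPM for Gjc3. The size and order of such ratios are therefore rough.

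By gene list, NC cells ranked first for 13 of 13 myelin genes, 23 of 28 Schwann cell precursor and glial genes, 11 of 14 nonmyelinating Schwann cell genes and 9 of 17 neural crest transcription factors. They ranked first for 2 of 17 autonomic neuron genes, 4 of 7 melanocyte genes, 0 of 9 sensory neuron genes and 0 of 9 mesenchymal neural crest genes. Prrx1, Twist1 and Pdgfra, which mark crest that has become mesenchyme, were highest in Pc, CapFb1c and CapFb1b, where they reached 625, 205 and 332 CPM. Of the markers of other cell types, NC cells ranked first for 0 of 10 fibroblast, 0 of 10 mural, 0 of 10 endothelial, 0 of 6 mesothelial, 0 of 7 epithelial and 0 of 8 erythroid genes and for 1 of 10 haematopoietic genes. For Prx, Ncmap, Cldn19 and Pllp the mean over libraries rests on few cells, and Pllp, for example, had 20 UMIs in 2 libraries (22.6 ± 52.8 CPM, SD over 8 libraries). The melanocyte count likewise rests on 1 cell of replicate 2 of P0 (below), since Pmel, Dct, Tyrp1 and Mlana, the 4 genes, reached 70.5, 120.8, 15.1 and 5.04 CPM in that library and at most 2.26, 21.5, 0.412 and 0 CPM in the others. In replicate 1 of W4 all Prx and Ncmap UMIs came from 1 cell without a UMI of Sox10, Foxd3 or Erbb3 (below).

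NC cells were most abundant at the earliest age. They made up 12.97% of the labelled cells at E12.5 (exact interval, 11.5 to 14.5%) and 5.21% at E13.5 (4.65 to 5.83%). At E16.5 the shares were 0.173 and 0.152%, at P0 0.832 and 0.438%, and at W4 0.273 and 0.214%. The early libraries lay above all others, and both P0 values lay above those of E16.5 and W4, although the interval of replicate 2 of P0 (0.283 to 0.645%) overlapped that of replicate 1 of W4 (0.110 to 0.561%). The number of NC cells, with the total of the library as the offset, differed over the 5 ages (edgeR quasi-likelihood F = 99.9, adjusted p = 0.000357 over 19 labels). It was higher at E12.5 and E13.5 than at P0 and W4 by 4.39 on the log2 scale (adjusted p = 6.69e-05). Shares of 19 labels sum to a whole, and 17 labels, 89.5%, passed the test over ages and 13, 68.4%, that between early and postnatal libraries. E12.5 and E13.5 have 1 library each and were assumed to vary like the replicated ages.

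**Figure D1:**
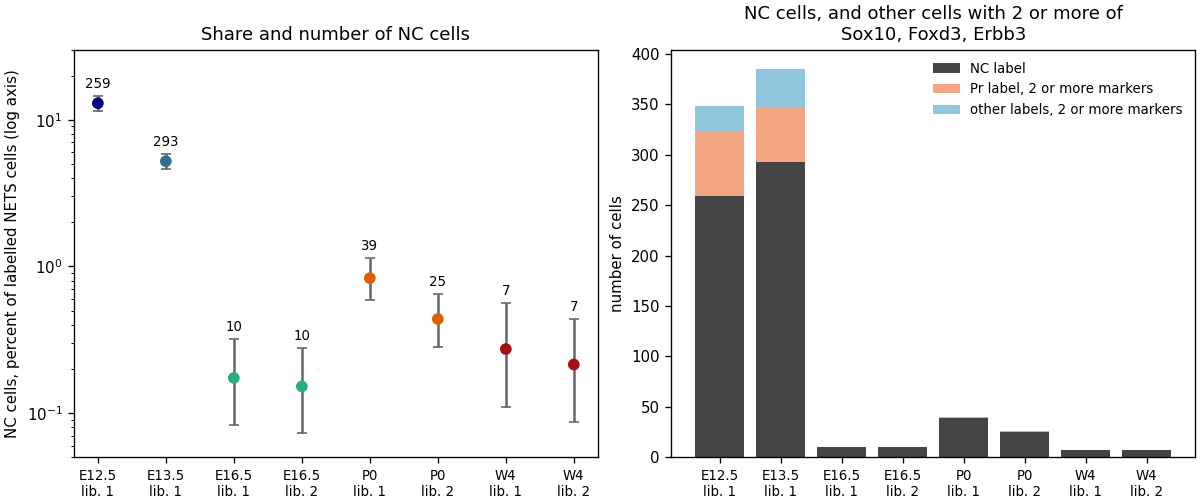
Left, NC cells as a percent of the labelled cells of each library, on a log axis, with exact 95% binomial intervals and the number of NC cells above each point. Right, number of cells with the NC label (dark), and of cells with the Pr label (orange) or another label (blue) that held 2 or more of Sox10, Foxd3 and Erbb3. The share was 12.97% at E12.5 and 0.152 to 0.832% in the 6 libraries from E16.5 onward, and the marker-bearing cells outside the label were nearly all in the 2 early libraries.

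Cells with the same markers lay outside the label at the early ages. At least 2 of Sox10, Foxd3 and Erbb3 were found in 603 of 650 NC cells, including 256 of 259 at E12.5 but 4 of 7 and 6 of 7 at W4. They were also found in 183 of 35558 other cells. Of these, 89 came from E12.5, 92 from E13.5 and at most 1 from each library of E16.5 and later (0, 0, 1, 1, 0 and 0). By label, 35 belonged to MedFb1a, 17 to MedFb2a, 6 to CapFb1a and most others to Pr (proliferating cells). The Pr cells among them, whose Foxd3 level is in part set by this choice, had Foxd3 levels of 694 CPM at E12.5 and 487 CPM at E13.5, beside 868 and 594 CPM in NC cells, and Fabp7 levels of 4003 CPM and 4897 CPM, beside 2972 and 5400 CPM.
Their cycling genes were those of the Pr label. Mki67 was at 229 and 205 CPM in them at E12.5 and E13.5 but at 19.7 and 34.2 CPM in NC cells, and the topoisomerase Top2a at 487 and 448 CPM against 18.4 and 37.1 CPM. Pdgfra, a fibroblast receptor, was at 4.40 and 41.9 CPM, compared with 152 and 141 CPM over all Pr cells. In NC cells Pdgfra was at 3.55 and 9.06 CPM, so at E13.5 these Pr cells lay above NC cells. The collagen gene Col1a1 was at 8.79 and 282.7 CPM in these Pr cells, beside 11.6 and 52.3 CPM in NC cells. Ednrb was lower in them than in NC cells, at 1898.7 and 1303.3 CPM beside 2422 and 2716 CPM. Ngfr was lower too, at 4.40 and 19.6 CPM beside 38.1 and 38.7 CPM. When these cells were counted with the label, 348 cells at E12.5 (17.4%) and 385 at E13.5 (6.85%) had either the NC label or at least 2 of these markers, and the difference over ages passed as well (F = 119.07, adjusted p = 0.000401). The low levels of cycling genes in NC cells describe the cells that carry the label.

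Gene expression in NC cells was compared between the 2 early libraries (E12.5 and E13.5) and the 4 postnatal libraries (P0 and W4), with age as the factor. Age had 5 levels, and E12.5 and E13.5 had 1 library each. The spread in this fit thus came from the replicates of E16.5, P0 and W4. Differences between E12.5 and E13.5, or between P0 and W4, did not enter it. Differences are on the log2 scale, early minus postnatal, with standard errors, and adjusted p-values are from edgeR's quasi-likelihood test with Benjamini-Hochberg adjustment over all 6700 genes tested. Of these, 1155 (17.2%) passed at 0.05, with 526 (7.85%) higher in the early and 629 (9.39%) higher in the postnatal libraries. The 2 groups of libraries did not overlap for 34.6% of genes, and the median difference of all genes was 0.16. Over the 5 ages, 961 genes (14.3%) differed. Without replicate 1 of W4 the early to postnatal count was 645. For genes with no UMI in either W4 library the fitted difference depends on the count that edgeR adds, so CPM values and adjusted p are given in place of the difference.

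Sox10 and Erbb3 showed no early to postnatal difference that passed. Sox10 measured 291 and 188 CPM at E12.5 and E13.5, 129.8 and 287 CPM at E16.5, 189.7 and 161.1 CPM at P0 and 215 and 454 CPM at W4. Both early values lay within the range of the later libraries, and the difference was 0.01 ± 0.31 (adjusted p = 0.984). Erbb3, the receptor for neuregulin in Schwann cell precursors, measured 203 and 177 CPM at E12.5 and E13.5, 143.5 and 134.1 CPM at E16.5, 145 and 181 CPM at P0 and 215 and 206 CPM at W4, with a difference of 0.04 ± 0.28 (adjusted p = 0.952). Both early values again lay within the range of the later libraries. Foxd3 measured 868 and 594 CPM at E12.5 and E13.5, 567 and 766 CPM at E16.5, 414 and 493 CPM at P0 and 279.5 and 578 CPM at W4. The lowest early library was just above the highest postnatal one, and the difference passed narrowly (log2 difference 0.77 ± 0.27, adjusted p = 0.0483). Nkain4 was higher early (log2 difference 1.20 ± 0.36, adjusted p = 0.0224) and Ngfr higher after birth (log2 difference -1.81 ± 0.47, adjusted p = 0.00888), its levels being 38.1 and 38.7 CPM at E12.5 and E13.5, 191.3 and 124.5 CPM at E16.5, 215 and 307 CPM at P0 and 43.003 and 123.9 CPM at W4. The study drew on genes and stages of an earlier work and named these 2, with Elavl3 and Mcam, as examples of early and postnatal NC cells. The examples were picked on these samples, so the directions of Nkain4 and Ngfr are no independent evidence. The highest Ngfr levels were at P0. The W4 values rest on 2 UMIs in replicate 1, under the floor of 3, and on 3 UMIs in replicate 2, and are imprecise.

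**Figure D2:**
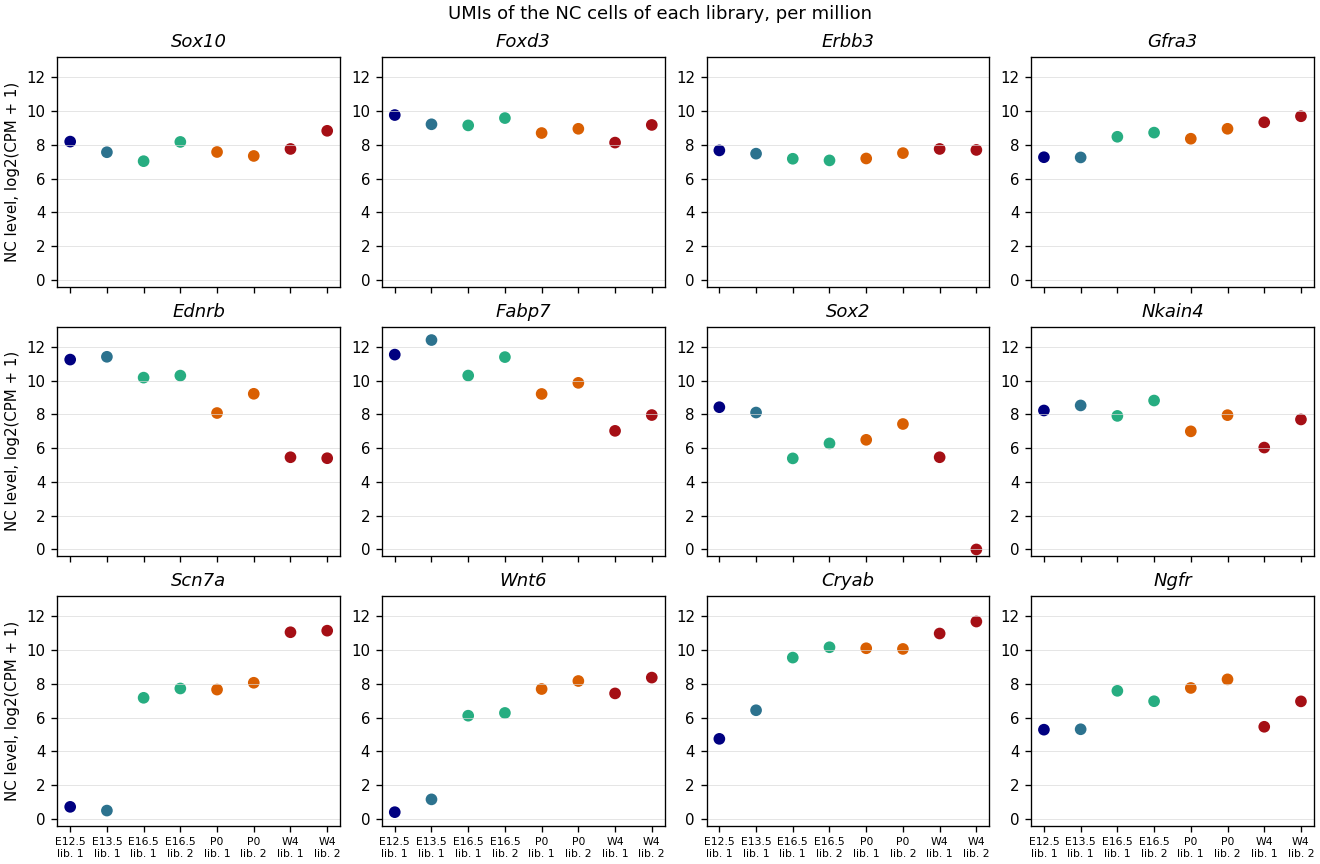
Level of 12 genes in the NC cells of each library, as log2(CPM + 1), 1 point a library, colored by age. Sox10 and Erbb3 overlapped between early and later libraries, Ednrb, Fabp7 and Sox2 were lower after birth, and Scn7a, Wnt6 and Cryab were near 0 or low at E12.5 and E13.5 and higher in each library from E16.5 onward.

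Among 17 neural crest transcription factors, 10 could be tested, of which 4 were higher early and 2 higher after birth (list median, 0.79). Tfap2a, an early crest specifier, measured 125.1 and 94.3 CPM at E12.5 and E13.5, 20.5 and 38.3 CPM at E16.5, 14.05 and 40.3 CPM at P0 and 21.5 and 0 CPM at W4 (log2 difference 2.57 ± 0.56, adjusted p = 0.00215). The homeobox genes Dlx1 and Dlx2 were at 85.8 and 48.6 CPM and at 95.1 and 53.97 CPM in the early libraries, at 4.68 to 10.1 CPM at P0, and had no UMI at W4 (adjusted p = 0.00325 and 0.000267). Ets1 (log2 difference -2.03 ± 0.35, adjusted p = 0.000192) and Sox6 (log2 difference -1.78 ± 0.39, adjusted p = 0.00235) were higher after birth. Zeb2, a repressor needed for Schwann cell maturation, measured 679 and 609 CPM at E12.5 and E13.5, 663 and 747 CPM at E16.5, 688 and 796 CPM at P0 and 968 and 1693 CPM at W4 and did not pass (log2 difference -0.58 ± 0.25, adjusted p = 0.116). Snai1, Snai2, Msx1, Msx2 and Pax3, factors of premigratory crest, were too low to test. Sox9 was at 211 CPM in replicate 1 of P0, but 82 of its 90 UMIs there came from 1 cell.

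Of 28 Schwann cell precursor and glial genes, all 28 could be tested, and 9 were higher early and 10 higher after birth (list median, -0.04). The list thus moved both ways. Among the members higher early, Ednrb, the endothelin receptor that holds crest cells undifferentiated, measured 2422 and 2716 CPM at E12.5 and E13.5, 1155 and 1255 CPM at E16.5, 269 and 594 CPM at P0 and 43.003 and 41.3 CPM at W4. From E16.5 onward each age lay below the one before, with no overlap, and the early and postnatal libraries differed by 4.26 ± 0.33 (adjusted p = 2.15e-09). Both W4 values of Ednrb lie under the level that 3 UMIs make in those libraries (64.5 and 123.9 CPM). Fabp7, a fatty acid–binding protein of precursors and immature glia, measured 2972 and 5400.3 CPM at E12.5 and E13.5, 1257 and 2682 CPM at E16.5, 590.1 and 932 CPM at P0 and 129 and 248 CPM at W4 (log2 difference 3.47 ± 0.29, adjusted p = 7.21e-09). Sox2, which holds Schwann cells immature, measured 342 and 275 CPM at E12.5 and E13.5, 41.0 and 76.6 CPM at E16.5, 89.0 and 171 CPM at P0 and 43.003 and 0 CPM at W4 (log2 difference 2.37 ± 0.43, adjusted p = 0.000371), with 1 W4 library at 0. Smaller early differences were found for the transporter-like Ttyh1 (1.55 ± 0.27), the integrin Itga4 (1.65 ± 0.41), N-cadherin Cdh2 (1.18 ± 0.34) and Metrn (1.11 ± 0.33), whose largest adjusted p was 0.0222. Cdh6 was at 307 and 227 CPM early, 54.7 to 76.6 CPM at E16.5 and P0, and had no UMI at W4 (adjusted p = 6.91e-06).

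Among the members higher after birth, Cryab, a small heat shock protein, measured 25.8 and 85.7 CPM at E12.5 and E13.5, 752 and 1149.6 CPM at E16.5, 1103 and 1073 CPM at P0 and 2021 and 3303 CPM at W4 (log2 difference -5.13 ± 0.32, adjusted p = 9.62e-11), and the libraries from E16.5 onward were all above the early ones. S100b, a calcium-binding protein that marks Schwann cells, measured 11.3 and 32.96 CPM at E12.5 and E13.5, 129.8 and 191.6 CPM at E16.5, 199 and 181 CPM at P0 and 323 and 330.3 CPM at W4 (log2 difference -3.68 ± 0.33, adjusted p = 1.9e-08). Fxyd1, a sodium pump regulator, was at 61.9 and 87.7 CPM early and 2429.7 and 3550.5 CPM at W4 (log2 difference -3.94 ± 0.30, adjusted p = 1.42e-09), and Gpr37l1 at 4.84 and 6.59 CPM early and 860.1 and 826 CPM at W4 (log2 difference -5.75 ± 0.41, adjusted p = 6.8e-10). L1cam (-2.32 ± 0.34), the adhesion ligand Lgi4 (-2.43 ± 0.35), Cdh19 (-1.69 ± 0.34) and Gfra3 (-1.82 ± 0.28) passed in the same direction, with a largest adjusted p of 0.00085. Dbi, Egfl8, Itga6, Ncam1, Gap43, Dhh, Postn, Moxd1 and Erbb3 did not pass, and Dbi, for example, measured 3188 and 5095 CPM at E12.5 and E13.5, 3355 and 5652 CPM at E16.5, 4339 and 4935 CPM at P0 and 3225 and 4624 CPM at W4.

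Of 13 myelin genes 11 could be tested, and all 11 were higher after birth (list median, -4.24), but 1 cell in each of 2 libraries carried much of this for part of the list. For 2 of the 11 there was no UMI at E12.5 or E13.5. Such genes passed the filter on the mean through later libraries alone and could only come out higher after birth. Ncmap and Cldn19 had UMIs in only 4 and 3 of the 8 libraries. The 11 calls are thus not 11 independent results. Mag measured 16.1 and 67.1 CPM at E12.5 and E13.5, 20.5 and 0 CPM at E16.5, 110.05 and 35.2 CPM at P0 and 344 and 0 CPM at W4. The postnatal libraries ranged from below to far above the early ones, and the difference of -1.996 ± 0.51 (adjusted p = 0.00737) became 3.26 (adjusted p = 0.712) without replicate 1 of W4. It was -0.87 (adjusted p = 0.383) without E12.5 and -1.40 (adjusted p = 0.0657) without replicate 1 of P0. In replicate 1 of W4, 1 cell held all 22 UMIs of Prx and all 22 of Ncmap. This cell and 1 cell in replicate 1 of P0 had UMIs of all 13 myelin genes, and no other of the 650 NC cells had 10 or more. Prx, Ncmap, Cldn19, Pllp and Mag, genes of mature myelin, had no UMI in replicate 2 of W4.
Without the 2 cells, the difference of Mag was 3.62 (adjusted p = 0.320), opposite in sign to that over all NC cells.
Other genes of the list rose in all postnatal libraries. Mal measured 18.7 and 69.2 CPM at E12.5 and E13.5, 287 and 316 CPM at E16.5, 897 and 679.8 CPM at P0 and 559 and 661 CPM at W4 (log2 difference -4.24 ± 0.32, adjusted p = 1.23e-09). Mbp, myelin basic protein, measured 21.3 and 42.8 CPM at E12.5 and E13.5, 321 and 623 CPM at E16.5, 927 and 418 CPM at P0 and 3032 and 619 CPM at W4 (log2 difference -5.26 ± 0.54, adjusted p = 1.75e-07), and Pmp22 was at 135.1 and 223 CPM early and at 947 to 3806 CPM after birth (log2 difference -3.53 ± 0.38, adjusted p = 3.29e-07). The transcription factor of promyelinating Schwann cells Pou3f1 (log2 difference -4.43 ± 0.41, adjusted p = 2.59e-08), the myelin regulator Egr2 (log2 difference -2.66 ± 0.42, adjusted p = 7.12e-05) and Cnp (log2 difference -1.60 ± 0.28, adjusted p = 0.000208) were higher in each postnatal library as well. In replicate 1 of W4, 84.4% of 141 Mbp UMIs came from the cell with all 13 genes. That cell, with 9268 UMIs, had no UMI of Sox10, Foxd3 or Erbb3, and the cell of P0 replicate 1 with all 13 genes, at 13002 UMIs, had 1, 3 and 2 of them. Without the 2 cells Mal, Mbp, Pmp22, Pou3f1 and Cnp still passed in the postnatal direction, with differences of -3.98, -4.16, -2.64, -4.43 and -1.30, and Egr2 did not (-1.63, adjusted p = 0.139).

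**Figure D3:**
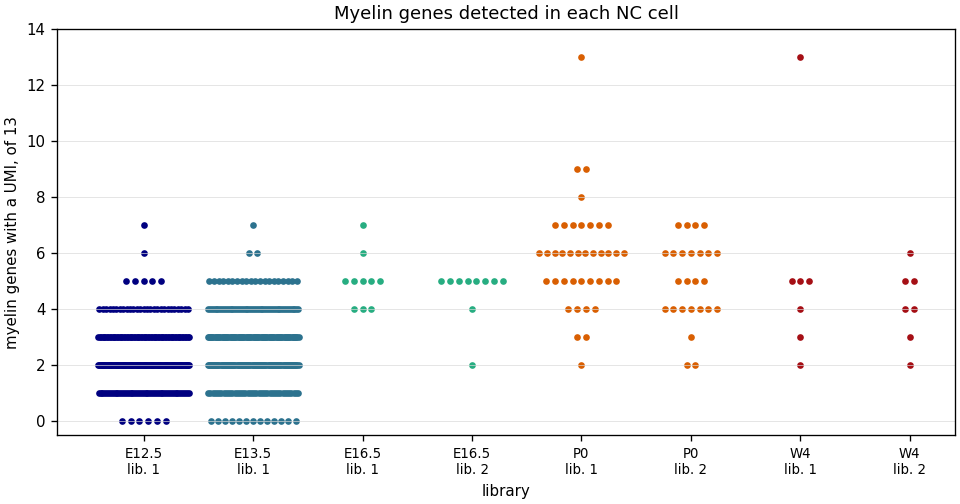
Number of the 13 myelin genes with a UMI in each NC cell (vertical axis) by library, 1 point a cell. The median cell held 2 of the genes at E12.5, 3 at E13.5, 4 in replicate 2 of W4 and 5 or 6 in the other libraries, and 1 cell in replicate 1 of P0 and 1 in replicate 1 of W4 held all 13.

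Nonmyelinating Schwann cells ensheathe small axons without myelin. Of 14 of their genes, 12 could be tested, 8 were higher after birth and 1 higher early (list median, -1.96). Scn7a, a sodium-sensing channel of nonmyelinating Schwann cells, measured 0.645 and 0.412 CPM at E12.5 and E13.5, 143.5 and 211 CPM at E16.5, 201 and 267 CPM at P0 and 2129 and 2271 CPM at W4. It had 2 UMIs in 259 cells at E12.5 and 1 in 293 at E13.5, was present in all libraries from E16.5 onward, and was at its highest at W4 (difference, -10.03 ± 0.48, adjusted p = 1.84e-12). Cadm2, a cell adhesion molecule, measured 0.323 and 2.06 CPM at E12.5 and E13.5, 13.7 and 9.58 CPM at E16.5, 30.4 and 80.6 CPM at P0 and 150.5 and 289 CPM at W4 (log2 difference -6.62 ± 0.74, adjusted p = 6.12e-07), and Cadm4, of the same family, had a smaller difference (log2 difference -1.36 ± 0.27, adjusted p = 0.00101). Apoe, a lipid carrier, measured 254 and 907 CPM at E12.5 and E13.5, 1209.5 and 2366 CPM at E16.5, 3292 and 5176 CPM at P0 and 5225 and 8298 CPM at W4 (log2 difference -3.44 ± 0.30, adjusted p = 1.13e-08), and Matn2, a matrix protein of nerve sheaths, 237 and 323 CPM at E12.5 and E13.5, 533 and 757 CPM at E16.5, 810.2 and 1188 CPM at P0 and 1204 and 1817 CPM at W4 (log2 difference -2.11 ± 0.28, adjusted p = 6.31e-06). Ngfr and L1cam are given above. Apod, a lipocalin of nerve glia, rose only at W4, to 946 and 330.3 CPM, from 4.94 to 16.4 CPM in the other libraries (log2 difference -3.64 ± 0.59, adjusted p = 9.65e-05), and 35 of its 44 UMIs in replicate 1 of W4 came from 1 cell. Gfap, a filament of mature nonmyelinating cells, had UMIs in 4 libraries, at most 86.01 CPM, and was not tested. Jun, Ncam1 and Ptprz1 did not pass.

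**Figure D4:**
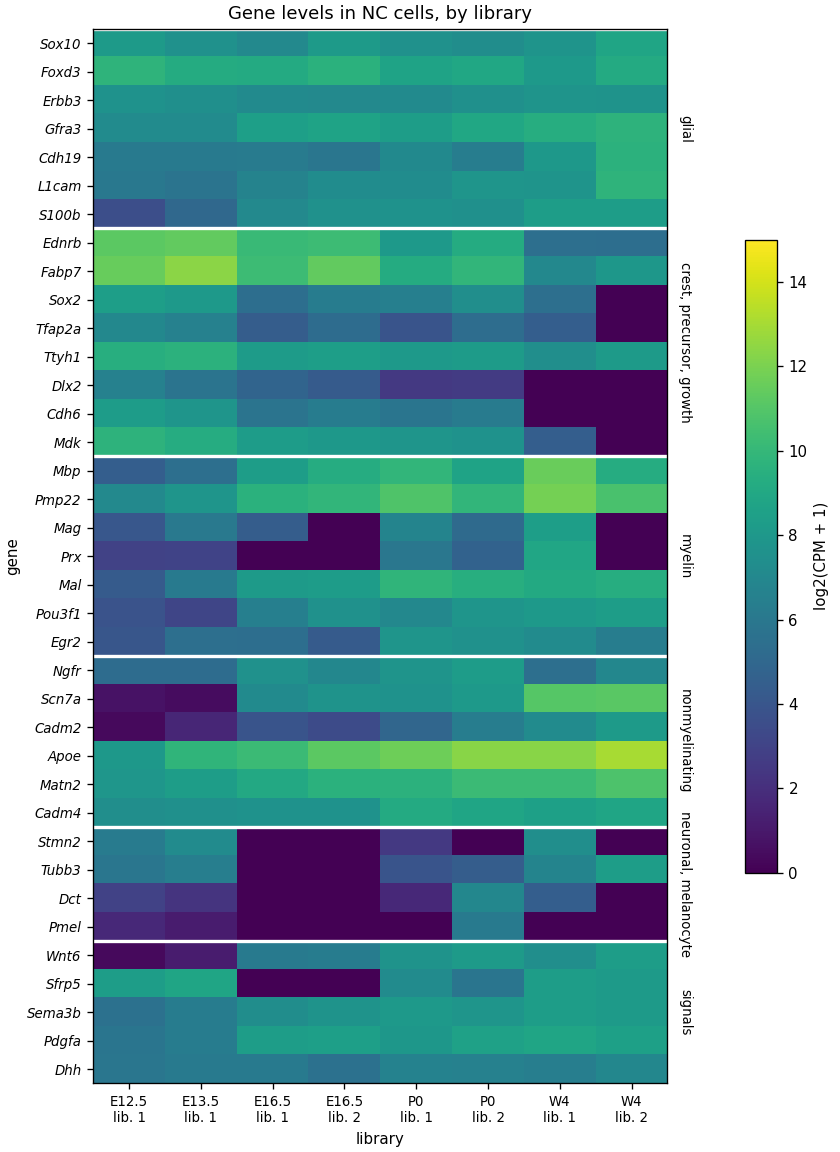
Levels of 37 genes in NC cells as log2(CPM + 1) (color) in the 8 libraries (columns), grouped by role. Glial genes were present in every library, precursor genes were lower toward W4, and the myelin genes Mag and Prx were high in replicate 1 of P0 and of W4 and low or 0 in replicate 2 of W4.

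Genes of other crest fates gave few tests. Of 17 autonomic neuron genes 2 could be tested and 1 was higher early. This was Stmn2, a neuronal tubulin regulator, which measured 73.9 and 149.1 CPM at E12.5 and E13.5, 0 and 0 CPM at E16.5, 4.68 and 0 CPM at P0 and 172.01 and 0 CPM at W4 (log2 difference 2.45 ± 0.56, adjusted p = 0.00347), with overlap between the groups. The summed level of the autonomic list was 211 and 430 CPM at E12.5 and E13.5, below the 336 and 589 CPM of the other cells, and 301 and 372 CPM at W4, above the 91.9 and 79.8 CPM of the other cells. At E16.5 and P0 it was 20.1 to 74.9 CPM. Stmn2 and Tubb3, a neuronal tubulin, led the W4 sums, with 172.01 and 330 CPM in 1 library each. All 8 Stmn2 UMIs of replicate 1 of W4 came from 1 cell. That library also held a cell with 9 of 10 endothelial genes, and over all labels Stmn2 was highest in the EnA endothelium (813 CPM). Whether that cell was the one with the Stmn2 UMIs was not tested. At E13.5, 49.8% of NC cells held 3 or more of the 17 genes, and no NC cell held more than 7. Th and Dbh, enzymes of noradrenaline synthesis, did not exceed 12.4 CPM. Of 9 sensory neuron and 7 melanocyte genes none was high enough to test, and summed levels of the sensory list were 0 to 41.3 CPM, compared with 12.4 to 34.2 CPM in all other cells. One cell of replicate 2 of P0 held 6 of the 7 melanocyte genes and all 24 Dct UMIs and 14 Pmel UMIs of its library. Dct and Pmel encode proteins of melanin synthesis and of pigment granules. Of 9 mesenchymal crest genes 2 could be tested, Prrx1 and Pdgfra. Neither passed between early and postnatal libraries, and both passed over all 5 ages (adjusted p = 0.000159 and 0.0443).

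Few genes of the signaling families were high enough to test. In the neuregulin and ERBB list 2 of 8 genes were tested and none passed. Erbb2, which pairs with ERBB3, was at 0 to 41.3 CPM, and Nrg1, the ligand, was highest in CapFb1c, at 7.83 CPM. In the endothelin list 2 of 7 were tested and 1, Ednrb, was higher early. Its ligand Edn3 was highest in CapFb1b (10.8 CPM) and Edn1 in the EnA endothelium (407 ± 131.9 CPM, SD over 8 libraries). In the GDNF family 3 of 9 were tested. Gfra3, the coreceptor for artemin, measured 153 and 152 CPM at E12.5 and E13.5, 355 and 422 CPM at E16.5, 328 and 493 CPM at P0 and 645 and 826 CPM at W4 and was higher after birth (log2 difference -1.82 ± 0.28, adjusted p = 5.15e-05), whereas Gfra1 and Gfra2 did not pass. Ret, the signaling receptor of this family, was at 0 in 5 of the 8 libraries and at most 41.3 CPM, and Artn and Gdnf were highest in vascular smooth muscle (VSM), at 9.65 and 2.44 CPM. Among 7 neurotrophin genes 3 were tested and Ngfr was the one that passed. Ntf3, a neurotrophin, was highest in VSM (26.98 CPM). In the hedgehog list 3 of 10 were tested and none passed. Dhh, by which Schwann cells act on the nerve sheath, measured 57.1 and 68.4 CPM at E12.5 and E13.5, 68.3 and 47.9 CPM at E16.5, 100.7 and 95.7 CPM at P0 and 86.01 and 123.9 CPM at W4 (log2 difference -0.66 ± 0.38, adjusted p = 0.264).

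Genes of secreted signals were found in NC cells, many at lower levels than in another label. The next list held 13 genes that the study names, Wnt genes and modulators together with others such as Jam2, Vwf, Tgfb3 and Elavl3. The study chose them on these samples, so they are no independent evidence of direction. Of the 13, 9 were tested, 1 was higher early and 3 were higher after birth (list median, -0.02). Wnt6, a secreted Wnt ligand, measured 0.323 and 1.24 CPM at E12.5 and E13.5, 68.3 and 76.6 CPM at E16.5, 206 and 287 CPM at P0 and 172.01 and 330.3 CPM at W4 (log2 difference -8.17 ± 0.53, adjusted p = 1.67e-10). It had 1 UMI at E12.5 and 3 at E13.5, was present in all libraries from E16.5 onward, and the next label, mesothelium, had a mean of 9.11 CPM. Sfrp5, a secreted Wnt antagonist, measured 329.9 and 444 CPM at E12.5 and E13.5, 0 and 0 CPM at E16.5, 152 and 55.4 CPM at P0 and 323 and 289 CPM at W4 (log2 difference 1.05 ± 0.31, adjusted p = 0.0234). It had no UMI in either E16.5 library, where 3 UMIs equal 20.5 and 28.7 CPM. Sfrp1, another antagonist, measured 954 and 859.7 CPM at E12.5 and E13.5, 417 and 374 CPM at E16.5, 869 and 730.1 CPM at P0 and 688 and 949.5 CPM at W4 and did not pass. Tgfb1 (-3.60 ± 0.84) and its receptor Tgfbr2 (-2.68 ± 0.51) were higher after birth (largest adjusted p = 0.00377). For Tgfb1, NC cells were at rank 9 among the labels, with a mean of 30.1 CPM beside 236 CPM in the EnVL endothelium.

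Of 14 semaphorin and neuropilin genes, which guide axons and vessels, 9 were tested and 3 were higher after birth (list median, -0.66). Sema3b measured 48.1 and 76.2 CPM at E12.5 and E13.5, 164 and 211 CPM at E16.5, 259.9 and 227 CPM at P0 and 323 and 289 CPM at W4 (log2 difference -2.18 ± 0.30, adjusted p = 9.89e-06), and Sema3c (log2 difference -1.80 ± 0.44, adjusted p = 0.0051) and Sema3e (log2 difference -6.56 ± 1.101, adjusted p = 0.000146) followed. Of 20 secreted factors 8 were tested, with 2 higher early and 3 after birth (list median, -0.64). NC cells ranked first among the labels for 0 of the 19 factors that were measured. Mdk, a heparin-binding growth factor, measured 823 and 626 CPM at E12.5 and E13.5, 314 and 259 CPM at E16.5, 222 and 201 CPM at P0 and 21.5 and 0 CPM at W4 (log2 difference 3.70 ± 0.40, adjusted p = 3.41e-07), and its relative Ptn passed narrowly (log2 difference 0.998 ± 0.34, adjusted p = 0.0489). Pdgfa, the ligand of the fibroblast receptor PDGFRA, measured 56.8 and 76.6 CPM at E12.5 and E13.5, 328 and 354 CPM at E16.5, 244 and 378 CPM at P0 and 452 and 372 CPM at W4 (log2 difference -2.43 ± 0.30, adjusted p = 2.94e-06). The chemokine Cxcl12 (log2 difference -2.99 ± 0.43, adjusted p = 2.35e-05) was higher after birth too, though NC cells were at rank 17 among 19 labels for it, and stem cell factor Kitl (log2 difference -1.44 ± 0.48, adjusted p = 0.0421) passed with overlapping groups. For Mdk, Ptn, Pdgfa and Kitl the ranks of NC cells were 16, 14, 2 and 9. Il7, a cytokine for T cell precursors, had UMIs in E13.5 and replicate 2 of P0 only, at 2.06 and 5.04 CPM.

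**Figure D5:**
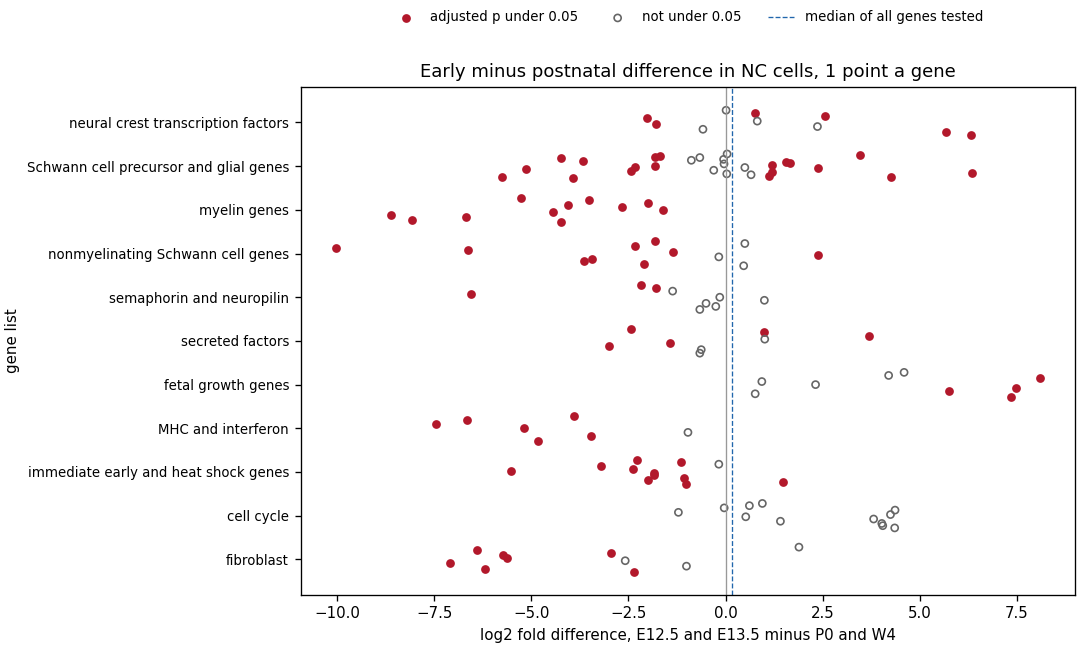
Early minus postnatal log2 difference (horizontal axis) of each tested gene in 11 gene lists, 1 point a gene, with red for an adjusted p under 0.05 and a dashed line for the median of all genes tested (0.16). All tested myelin genes lie to the left, as do most nonmyelinating Schwann cell, MHC, immediate early and fibroblast genes, and the fetal growth genes lie to the right. Of the myelin genes, 2 had no early UMI and passed the filter through later libraries alone. Genes without a UMI at W4 are drawn at their fitted difference.

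Some genes of fetal growth were higher early. Of 12 fetal growth genes 9 were tested and 4 were higher early (list median, 4.60, set by genes without a UMI at W4). Mest, an imprinted gene of fetal mesoderm, measured 1909 and 1638 CPM at E12.5 and E13.5, 1182 and 441 CPM at E16.5, 281 and 222 CPM at P0 and 0 and 0 CPM at W4 (adjusted p = 1.53e-08). Igf2bp1 (127.1 and 71.3 CPM early), Igf2bp2 (207 and 171 CPM) and Hmga2 (263 and 168.1 CPM), an RNA-binding pair and a chromatin protein of fetal cells, had no UMI at W4, and their largest adjusted p was 0.00034. H19, Dlk1, Plagl1 and Peg3 were highest in replicate 1 of E16.5 (1121, 2050.1, 355 and 827 CPM) and did not pass between early and postnatal libraries, which leaves E16.5 out. In the test over all 5 ages 7 of the 9 passed, including Dlk1 (adjusted p = 0.00286), Plagl1 (0.00260) and Peg3 (0.0140) but not H19 (0.0976). In that library 1 of the 10 NC cells held 39.7% of 300 Dlk1 UMIs and another 86 of them, and the 2 cells highest for H19 held 67 and 44 of its 164 UMIs. Replicate 2 of E16.5 had 8 Dlk1 and 10 H19 UMIs. Pdgfra had 22 UMIs in 3 of the 10 cells of replicate 1 and none in replicate 2, the most fibroblast genes in a cell were 9 and 6 of 10, and 5 or more were found in 7 of 10 cells in each. The part of other cells in these levels was not tested. The summed level of the fetal growth list reached at most 123.9 CPM at W4. In the other cells of the libraries it fell too, from 5251 and 7463 CPM early to 357 and 441 CPM at W4. In the test of the difference from the other cells (below) 1 of the 9 genes passed. Of 16 Hox genes 2 were tested (Hoxb2 and Hoxb4) and neither passed, and the summed level of all 16 was 159 CPM at E13.5, below the 269 CPM of the other cells. Of 16 cell cycle genes 12 were tested, none passed between early and postnatal libraries (list median, 2.61) and 3 passed over all ages, and the summed level was 424 and 559 CPM early, 663 and 1073 CPM at E16.5 and 129 and 206 CPM at W4. Mki67 measured 19.7 and 34.2 CPM at E12.5 and E13.5, 88.8 and 76.6 CPM at E16.5, 16.4 and 5.04 CPM at P0 and 0 and 41.3 CPM at W4.

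Immune and stress-type transcripts were on the postnatal side. Of 13 MHC and interferon genes 7 were tested and 6 were higher after birth (list median, -4.83). The MHC class I genes H2-K1, at 3.55 and 3.71 CPM at E12.5 and E13.5, 41.0 and 9.58 CPM at E16.5, 84.3 and 141 CPM at P0 and 1763 and 784 CPM at W4, and H2-D1 (log2 difference -7.46 ± 0.50, adjusted p = 2.21e-10) rose, together with B2m (log2 difference -3.89 ± 0.34, adjusted p = 1.12e-08), their shared light chain, and with Ifitm3 (-4.83 ± 0.40), Isg15 (-5.18 ± 0.9995) and Bst2 (-3.47 ± 0.42). The same list rose in the other cells of the libraries, from a summed 233 and 534 CPM early to 8128 and 7406 CPM at W4. Of 12 immediate early and heat shock genes, which dissociation of tissue can induce, all were tested, and 10 were higher after birth and 1, the chaperone Hsp90aa1, higher early (list median, -1.84). Fos measured 723 and 1889 CPM at E12.5 and E13.5, 3539.8 and 3765 CPM at E16.5, 7349.9 and 3610.3 CPM at P0 and 6429 and 5573 CPM at W4 (log2 difference -2.29 ± 0.27, adjusted p = 1.8e-06), and Junb (-3.22 ± 0.29), Egr1 (-2.37 ± 0.35) and Atf3 (-5.53 ± 0.41) rose with it. In the other cells of the same libraries the summed level of this list went from 4560.5 and 7609.9 CPM early to 11255 and 12700.3 CPM at W4, and 19274 and 16803 CPM at P0. The near-identical copies Hspa1a and Hspa1b cannot be told apart with certainty.

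Markers of other cell types moved with age in the same libraries. Of 10 fibroblast genes, all were tested and 7 were higher after birth (list median, -4.30, or -3.97 with Dpt, which had no early UMI, at its bound). The summed level of the list was 328 and 823 CPM early, 11480.4 and 2587 CPM at E16.5, 15659.8 and 9451 CPM at P0 and 7096 and 9867 CPM at W4, compared with 2484 to 34087 CPM in the other cells. Collagen genes led it, with Col3a1 at 40.3 and 198 CPM at E12.5 and E13.5, 3840.5 and 795 CPM at E16.5, 5437 and 3938 CPM at P0 and 4107 and 6069 CPM at W4. Pdgfra, a fibroblast receptor, had no UMI in 4 of the 8 libraries, in which 3 UMIs equal 15.1 to 123.9 CPM. Collagens are also made by Schwann cells, and the part of other cells in this rise was not tested. Of 10 endothelial genes 6 were tested and 1 was higher after birth. Their sum was 20.1 to 38.3 CPM in the first 6 libraries, 1656 CPM in replicate 1 of W4 and 206 CPM in replicate 2, and in the former 1 cell with 9 of the 10 genes held all 16 Pecam1 UMIs. Of 10 mural genes 5 were tested and 2 (Tagln and Cspg4) were higher after birth, with sums of 242 to 680 CPM. The 1 haematopoietic gene tested, Coro1a, and all 4 erythroid genes tested were higher after birth, with sums of 6.77 to 218 CPM and 8.06 to 2436 CPM. Hbb-bs, a hemoglobin chain nearly identical to Hbb-bt, led the latter. Sums of 6 mesothelial and 7 epithelial genes were at most 41.3 and 82.6 CPM. Of 6 surface genes used in sorting, 2 were tested, and Pdpn (gp38) was higher early, at 142 and 140.1 CPM, and at 0 to 21.5 CPM after birth. At least 3 of the 10 fibroblast genes had a UMI in 305 of 650 NC cells, and at least 5 in 33 of 39 cells in replicate 1 of P0. A narrower set of cells, with a UMI of Pdgfra, 3 or more endothelial or haematopoietic genes or 5 or more mural genes, held 0 to 16 cells per library. Without it, an alternative that was not planned beforehand, 1087 genes passed in place of 1155, and most cells with fibroblast genes stayed in this fit.

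The genes with the largest early to postnatal differences, among those whose libraries did not overlap, came from several of these groups. Prdm12, a regulator of sensory neuron fate, was at 152 and 63.0 CPM early and had no UMI in any later library, which makes it at least 26.2-fold higher, pooled over the group and taking 3 UMIs as the floor. Ctnnd2 (420.2 and 547 CPM), a catenin of neural cells, Crabp2 (785 and 491 CPM), which binds retinoic acid, Nell2 (293 and 234 CPM), a secreted axon guidance protein, Basp1 (460.2 and 383 CPM), the neurofilament Nefm (88.0 and 148.3 CPM) and the collagen Col26a1 (190.0 and 262 CPM) had no UMI at W4. Mest, Igf2bp1 and Hmga2 completed the set, and the largest adjusted p of these genes was 4.4e-05. The later set was led by Lgals3, a galectin with no early UMI (16.4 and 519 CPM at P0, 172.01 and 372 CPM at W4), at least 336-fold higher, and by Scn7a. Complement C4b was at least 174.6-fold and Mrgprf at least 71.4-fold higher.
Igfbp7, a secreted protein that binds insulin-like growth factors, measured 4.19 and 4.53 CPM at E12.5 and E13.5, 902 and 1169 CPM at E16.5, 1728 and 1742 CPM at P0 and 5676 and 4211 CPM at W4 (log2 difference -9.34 ± 0.39, adjusted p = 3.2e-13). Fgl2 (-9.49 ± 0.72), Anxa1 (-9.37 ± 0.69), Ifi27l2a (-9.03 ± 0.75), Fndc1 (-8.59 ± 0.72) and Emp1 (-8.49 ± 0.53) completed the set. Every gene of the later set was also higher after birth in the other cells of the same libraries. Mean levels there went from 13.1 to 3386 CPM for Igfbp7, 8.17 to 331 CPM for Anxa1 and 3.30 to 280.02 CPM for Ifi27l2a. They went from 0.619 to 128.5 CPM for Fndc1, 28.7 to 271 CPM for Emp1 and 1.43 to 40.2 CPM for Fgl2. For Scn7a they went from 0.312 to 50.9 CPM and for C4b from 0.156 to 31.6 CPM. Lgals3 went from 0.129 to 20.2 CPM and Mrgprf from 0.101 to 20.2 CPM. The part of RNA from other cells in these differences was not tested.

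Few genes passed between E12.5 and E13.5, a comparison of 1 library with 1. Between these 2 libraries 6 of 6700 genes (0.0896%) passed, of which 5 (0.0746%) were higher at E13.5 and 1 (0.0149%) at E12.5, and 141 had an unadjusted p under 0.05. Both ages have 1 library, so the spread was borrowed from the later ages, and 0 genes passed without replicate 1 of W4 or without replicate 2, compared with 32 with no filter on low counts. Few calls in this design do not show that the ages were alike. Sostdc1, the BMP and Wnt antagonist that was among the genes most particular to NC cells, was at 30.6 CPM at E12.5 and 304 CPM at E13.5 (log2 difference, E12.5 minus E13.5, -3.35 ± 0.53, adjusted p = 0.00598). Abca8a (7.42 and 73.3 CPM), Ndrg1 (5.16 and 33.4 CPM), a gene of myelinating glia, Csmd1 (0.323 and 21.8 CPM) and Ifitm1 (0.645 and 26.8 CPM) were also higher at E13.5. The sixth gene, Ddx3y, is Y-linked, and was at 51.3 CPM at E12.5 and 0 at E13.5. It differed within ages too, at 0 and 30.2 CPM at P0 and 64.5 and 0 CPM at W4. In the 2 later libraries without it, 3 UMIs equal 7.02 and 123.9 CPM. The sex of the mice behind each library was not tested. With E12.5 set against the mean of all later ages, 528 genes (7.88%) passed, of which 337 (5.03%) were higher at the later ages and the remainder (2.85%) at E12.5. The 10 with the largest differences at E12.5 were Prdm12, Crabp2, Scube1, Hmga2, Homer2, Nell2, Foxp2, Igf2bp1, Mest and Tmeff1, of which Scube1 was at 99.0 CPM at E12.5 and 57.7 CPM at E13.5. The 10 largest in the later direction were Emp1, Anxa1, Psmb8, Casp12, Dcn, Fndc1, Col15a1, Csmd1, Nrn1 and Cxcl1. For Dcn, 1 cell held 51.7% of 377 UMIs in replicate 1 of P0 and another 86 of them, 81 and 72 of 212 came from 2 cells in replicate 1 of E16.5, and the other cells went from 305 CPM early to 8377 CPM after birth. Nrn1, a neuritin, was at 0.645 CPM at E12.5, 2.47 CPM at E13.5 and 164 to 1156 CPM afterward.

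NC cells and all other labelled cells, summed per library, differed in their early to postnatal change in 563 genes (8.4%), by a test of that difference. The make-up of the summed cells shifted with age too, as 13 of 19 labels, NC among them, passed for cell number between early and postnatal libraries. The part of such shifts in these differences was not tested. The difference was positive for 347 genes (5.18%) and negative for 216 (3.22%). Gfra3 and Foxd3 were among the negative values. Gfra3, which rose in NC cells, was at 3.71 CPM in the other cells early and 0.0241 CPM after birth (difference of differences, -9.48 ± 0.50, adjusted p = 1.97e-09). Foxd3, which was lower after birth in NC cells too, fell further in the other cells, from 20.4 to 0.0801 CPM (-8.35 ± 0.51, adjusted p = 9.37e-09). The cells with glial markers outside the label at E12.5 and E13.5 are among the other cells, and with pericytes and VSM alone as the comparison the difference of Foxd3 was -2.02 (adjusted p = 0.291) and that of Gfra3 -5.56 (adjusted p = 0.0383). In that comparison 697 genes passed in all, and 7 of the 20 genes named here, Foxd3, Kcna1, Igsf21, Atp8b1, Kcnh8, Maf and Slit3, did not. Their differences there were -2.02, -6.48, -10.73, -6.63, -2.47, 6.07 and 5.53, in this order. Kcna1, a potassium channel, rose in NC cells from 22.9 and 18.9 CPM to 342 and 453 CPM at P0 and 2602 and 4417 CPM at W4, while it was at 3.31 and 0.351 CPM in the other cells (-8.80 ± 0.41, adjusted p = 2.05e-10). Cadm2, Igsf21, Sema4f, Sema3e, Atp8b1, Kcnh8 and Cspg4 were the other genes with the largest negative values. All 10 genes with the largest positive values (Ctsk, Spon1, Ctnnd2, Lsamp, Maf, St5, Klhl13, Vangl1, Slit3 and Id4) had no UMI in NC cells at W4. For Ctsk, a collagen-degrading protease, NC cells held 123 and 112.9 CPM early and 63.2 and 25.2 CPM at P0, and the other cells went from a mean of 22.2 to 235 CPM. For Ctnnd2, Lsamp, Klhl13, Vangl1, St5, Slit3 and Id4 the P0 levels of 0 to 42.1 CPM lie under the 42.4 CPM that 3 UMIs make at W4, so that a fall between P0 and W4 was not detectable. Spon1, a matrix protein that guides axons, was at 316 and 317 CPM early and 53.9 and 20.1 CPM at P0. In this test H2-K1, B2m, Fos, Junb and Egr1 did not pass (adjusted p of 0.187 to 0.841), whereas H2-D1 (-1.95 ± 0.45, adjusted p = 0.00964) and Atf3 (-3.47 ± 0.38, adjusted p = 6.47e-06) rose more in NC cells than in the others. Without replicate 1 of W4, without replicate 2 of W4 and without E12.5 the count was 295, 319 and 315.

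In newborn mice, NC cells made up 0.479, 0.955 and 0.187% of the NETS in the WT libraries (mean, 0.540 ± 0.388%, SD, n = 3) and 0.824, 0.397 and 1.05% in the Tbx1+/-Crkl+/- libraries (0.756 ± 0.330%, n = 3). The groups overlapped, and the difference of 0.216 percentage points had p = 0.5 in a two-sided exact permutation test, in which 3 against 3 cannot go below 0.1. Tbx1 had 0 UMIs in NC cells of all 6 libraries and Crkl 9, so the genotype could not be read from these cells. Of 2322 genes tested between the genotypes 0 passed in edgeR (0%), and 4.87% of them had an unadjusted p under 0.05. DESeq2 called 0 as well, with 1.29% under 0.05. Libraries held 6 to 20 NC cells with a median depth of 1951.5 to 3022.5 UMIs per cell.
The list genes with the smallest p were Hspa1a, Hspa1b and Atf3, stress genes that dissociation of tissue can induce, and all were lower in Tbx1+/-Crkl+/- cells. Their log2 differences were -2.53 ± 0.62, -2.78 ± 0.74 and -2.11 ± 0.57, with unadjusted p of 7.15e-05, 0.000249 and 0.000311 and an adjusted p of 0.131 each (edgeR). Hspa1a and Hspa1b are nearly identical, and their UMIs may be split between them. The chaperone Hsp90aa1 (-1.13 ± 0.43) and Mal (-1.36 ± 0.52) followed, with an adjusted p of 0.736 each.
Levels in WT and Tbx1+/-Crkl+/- NC cells were 353 ± 60.9 and 356 ± 163.2 CPM for Sox10, and 488 ± 180 and 589 ± 214 CPM for Foxd3 (SD, n = 3 each). Fabp7, at 516 ± 212 and 218 ± 208 CPM, had a log2 difference of -1.32 ± 0.55, an unadjusted p of 0.0169 and an adjusted p of 0.892 (edgeR). Scn7a was at 1448 ± 212 and 1342 ± 410 CPM, whereas P0 libraries of the age series had 201 and 267 CPM. The newborn NC cells also held transcripts of epithelium and of class II, with pooled levels of 1006 CPM for Cd74, 658 CPM for Krt18, 481 CPM for H2-Aa and 101.2 CPM for Epcam, against 8.55, 8.55, 2.34 and 0 CPM at P0 of the age series. Other NETS of the newborn libraries held them too (736, 399, 310.1 and 49.1 CPM), from a sort that did not gate out EpCAM+ cells. The 2 data sets were captured and processed separately, and these differences were not tested.

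In the bulk libraries of sorted NETS, Sox10 and Foxd3 had 0 reads in all 48 libraries, with 6793831 to 15852166 counts in all but 1 of them. The exception, a gp38+CD26+ library at 4 weeks, held 25702. Gfra3 was found in 10 libraries and was highest in the Ly51+gp38- population at 4 weeks, whose 6 libraries ranged from 0 to 21.5 CPM with a median of 8.56 CPM (mean, 8.89 ± 8.47 CPM). At P0 the same population had 3.78 ± 3.06 CPM, and CD31+ cells had 0 reads at both ages. Over both ages Gfra3 (log2 difference 6.81 ± 1.102, adjusted p = 3.14e-05, edgeR) was higher in Ly51+gp38- cells than in the mean of the other populations, a size that depends on the count edgeR adds where a population is at 0. Nkain4, in contrast, was highest in gp38+CD26+ cells at 4 weeks (133.8 ± 74.8 CPM) and Ngfr in gp38+CD26- cells at 4 weeks (161.1 ± 50.4 CPM). The lists for NC cells held 109 genes, more than the crest factors and glial genes alone, and 78 of them could be tested in bulk. The counts that follow are thus not those of glial genes only. Of the 78, 14 were higher in CD31+, 35 in gp38+CD26-, 35 in gp38+CD26+ and 31 in Ly51+gp38- cells than in the other populations, where 18%, 13.4%, 16.1% and 15.9% of all 15303 genes were. In the same order 34, 2, 9 and 7 of the 78 were lower, beside 19.1%, 3.48%, 9.25% and 9.68% of all genes, so that in CD31+ cells more of them were lower than higher. Without the library of 25702 counts the numbers higher were 14, 36, 35 and 31, and with the title code as a term 14, 35, 32 and 30. In bulk RNA, fewer cells of a type and less RNA per cell cannot be told apart. With Sox10 and Foxd3 at 0 reads in all 48 libraries, the list counts cannot be read as a measure of NC cells. Which cells of these populations held the transcripts was not tested.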

How the data were processed

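Single-cell libraries were made with a 10x 3′ kit and sequenced by the authors, whose processing notes name Cell Ranger 3.1.0, STAR 2.5.3a, HTSeq, mm10 and GRCh38. The deposited single-cell matrices hold raw UMI counts and the deposited bulk tables raw read counts per gene. The authors kept cells with more than 1000 genes and few mitochondrial reads, removed doublets, Ptprc+ cells and contaminating clusters, and labelled clusters, with labels carried over to the newborn data. The labels were used as deposited and no further doublet caller was run. UMIs of the NC cells were summed per library with at least 5 NC cells. Genes with a mean of at least 20 CPM and 15 UMIs in all were tested with edgeR 4.0.16 (TMM factors, quasi-likelihood test, R 4.3.3), with Benjamini-Hochberg adjustment over all genes tested and a threshold of 0.05. DESeq2 1.42.0 was an alternative. The change particular to NC cells was an interaction with all other labelled cells of the same library, or with pericytes and vascular smooth muscle alone as an alternative. Newborn shares were compared with an exact permutation test (scipy 1.17.1). Bulk populations were each tested against the mean of the other 3 over both ages, and entries of no gene (7.81 to 29.4% of counts) were left out. In bulk, 37607 of 39179 gene IDs had a symbol. NC cells and the other labels were compared by levels only. Genes named singly were the 10 with the largest difference in each direction among those that passed with groups that did not overlap, and the 15 with the largest ratio to the next label at a mean of at least 50 CPM, beside the gene lists. Members, lists and tests were chosen with earlier results of these data known. A few genes of the lists, of the marker count and of the ranking are not reported here. The replicate numbers did not pair the samples (correlations of deviations, -0.00282 to 0.103 over ages and -0.0835 to -0.0331 in newborn mice).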

Additional observations from a re-analysis of the deposited data

Results flagged for a closer look

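The early to postnatal change of NC cells differed from that of the other labelled cells, summed per library, in 563 genes, by a test of the difference itself (edgeR). The genes with the largest positive differences of log2 differences were Ctsk (11.67), Spon1 (11.20), Ctnnd2 (9.82), Lsamp (9.56), Maf (8.97), St5 (8.91), Klhl13 (8.70), Vangl1 (8.35), Slit3 (8.31) and Id4 (8.26). All 10 had no UMI in NC cells at W4, so that these sizes depend on the count that edgeR adds. The largest negative values were those of Cadm2 (-11.40), Igsf21 (-10.47), Sema4f (-10.12), Gfra3 (-9.48), Sema3e (-9.44), Atp8b1 (-9.17), Kcna1 (-8.80), Kcnh8 (-8.71), Cspg4 (-8.38) and Foxd3 (-8.35). Atp8b1 had no early UMI in NC cells, and its size depends on the added count in the same way.

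In 7 of 26 pairs of a gene and a bulk group of 6 libraries, 1 library stood far from the other 5 by Dixon's criterion at the 95% level, where chance gives about 1 in 20. That rate does not apply to 5 of the 7, in which 1 library alone had reads (both pairs of Gfra3 and of Scn7a, and Ngfr in CD31+ cells). For Gfra3 the library that stood apart had 8.80 CPM in gp38+CD26- cells at P0 and 3.28 CPM in gp38+CD26+ cells at 4 weeks. For Ngfr it had 0.329 CPM in CD31+ cells at P0 and 69.8 CPM in gp38+CD26+ cells at 4 weeks. Nkain4 reached 2.56 CPM in 1 CD31+ library at P0, and Scn7a 0.164 CPM at P0 and 8.28 CPM at 4 weeks in 1 CD31+ library each.

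Thymic epithelial bulk libraries, which the comparisons above do not use, held reads of genes that were at 0 in all 48 libraries of sorted NETS. Sox10 had 733 reads in 13 of 36 epithelial libraries and Foxd3 355 reads in 13. Gfra3, which had 1030 reads in 10 of the sorted NETS libraries, had 10257 reads in 22 of the 36, with 0 in cortical libraries at both ages.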

How the results depend on the processing

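A gene that fell below the filter under an alternative could not be compared there and is left out of these counts. Over 2393 comparisons of a single gene or share with an alternative, 2197 kept their direction and side of the threshold, 2 newly passed, 21 shares moved after thinning, 4 changed sign and all others kept the direction but no longer passed. Those 4 were Mag (3.26) without replicate 1 of W4 (range over the libraries left out, -2.98 to 3.26), Mag with cells thinned to 2000 UMIs (2.54), and Mag (3.62) and Dnajb1 (0.18) without the 2 cells that hold all myelin genes, an alternative chosen after seeing the data. Without replicate 1 of W4, 30 results no longer passed, without replicate 2 of W4, 23, and with DESeq2, 31. Counting NC cells together with cells that hold 2 of Sox10, Foxd3 and Erbb3 was also chosen after seeing the data, in place of a planned rule that is not reported here.

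The count of genes that differed over ages was 1442 with no filter on low counts and 578 with at least 10 NC cells a library. Between early and postnatal libraries it was 641 with thinned cells (59.8% higher early, 45.5% in the fit as reported), 775 with DESeq2 (31.7%) and 1477 with no filter (59.6%). With 2 groups in place of 5 ages, and E16.5 left out, it was 1025 (35.6%). In that fit the spread between the ages of a group counts, and 14 gene results no longer passed. E12.5 against later ages gave 280 genes with DESeq2 (12.9% higher at E12.5, 36.2% as reported and 53.4% with no filter), and E12.5 against E13.5 gave 32 with no filter. The difference from other cells gave 385 genes with DESeq2 (40.5% positive, 61.6% as reported). Leaving out 1 library at a time gave 735 to 1252 genes over ages, 645 to 1405 between early and postnatal libraries, 372 to 809 for E12.5 against later ages, 0 to 36 for E12.5 against E13.5, 295 to 717 for the difference from other cells, F = 58.7 to 323 for NC cell number, 0 to 1 gene by newborn genotype (1 without WT replicate 3) and 0.0388 to 0.423 percentage points for the newborn share. The causes were not tested.

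With a replicate block, E12.5 against E13.5 gave 52 genes, the test over ages 1215, early against postnatal 1190 and E12.5 against later ages 732, and NC cell number had F = 83.2. The labels share only numbers. Depth limits W4 most, where 3 UMIs equal 42.4 CPM over both libraries.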
